A study of Drosophila melanogaster with 4 samples.

Results

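The 9 genes described here encode factors of primary piRNA processing, the part of the piRNA pathway that turns a long single-stranded transcript into short RNAs and loads them on Piwi. They were chosen by name (armi, vret, shu, zuc, Gasz, mino, papi, squ and Hen1) and are 9 of the 13931 gene rows of the deposited table. All 9 were found by their symbols, and all 9 passed a filter of a mean of at least 1 RPM (read per 1000000 reads) over both value columns, as did 7577 genes in all.

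What was measured is the small RNA bound to Piwi, not the messenger RNA or the protein of these genes. The cells were OSC (ovarian somatic cells), a cultured line from the soma of the fly ovary, grown at 26 degrees. The first group received a plasmid for Yb that lacks its Hel-C domain (the group Yb ΔHel-C, 2 libraries), and the other a plasmid for full-length Yb (Yb WT, 2 libraries). Every library of both groups came from cells that also received an siRNA against Yb (siYb), and RNA of 23 to 30 nucleotides was cloned after purification of Piwi with a Flag antibody. The comparison addresses how the loss of Hel-C from Yb, a Tudor-domain protein that builds the cytoplasmic Yb bodies, bears on the RNAs that Piwi carries.

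In somatic cells of the fly ovary, piRNA precursors gather in Yb bodies next to mitochondria. The helicase Armitage (armi) binds the precursors there, together with the Tudor protein Vreteno (vret) and the co-chaperone Shutdown (shu). Precursors are then cut at the mitochondrial surface by the nuclease Zucchini (zuc), with Gasz and Minotaur (mino) on the same membrane. Papi, a Tudor and KH domain protein, acts on the way to mature 3' ends, where Hen1 adds a methyl group. Piwi in these cells also binds small RNAs cut from ordinary messenger RNAs, often from their 3' ends, so the genes of the pathway can themselves appear among its products.

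The table holds 1 value column per group, so no difference below has a replicate check, and the spread between the 2 libraries of a group is not known. Each value is a whole multiple of the value of 1 read, which gives totals of 2803305 reads for Yb ΔHel-C and 2955141 reads for Yb WT. Gene rows held 78.9% of the total in Yb ΔHel-C and 64.2% in Yb WT, while transposon rows held 1.81% in Yb ΔHel-C and 4.99% in Yb WT. Intervals are exact 95% intervals for counting error only, and reads without molecular identifiers are not independent molecules. A call of higher or lower asks for at least 2-fold, taken as a size of 1 on the scale of log2(RPM + 0.5), and for an exact binomial test on the reads that passes 0.05 after Benjamini-Hochberg adjustment over all 7577 genes. That test sets one column against the other and does not test the conditions.

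The cell type was checked on marker genes, as far as Piwi-bound reads can show it. Of the 5 somatic genes on the marker list, tj, Fas3, ptc, Egfr and zfh1, all were detected, with 22357 reads together in Yb ΔHel-C and 24948 in Yb WT. The 5 germline genes, vas, osk, nos, bam and orb, had 45 reads together in Yb ΔHel-C and 136 in Yb WT, of which orb held 34 in Yb ΔHel-C and 127 in Yb WT. vas, which defines the germline, had 2 reads in Yb ΔHel-C and 0 in Yb WT, and osk had 1 read in each column. The 13 genes listed for the germline piRNA pathway, described below, had 3408 reads together in Yb ΔHel-C and 3126 in Yb WT. Piwi-bound reads on these few markers thus do not settle the cell type. The part of germline RNA in the results below was not tested.

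On the authors' totals, Piwi-bound reads were higher in Yb ΔHel-C than in Yb WT on 8 of the 9 processing genes, and zuc was the exception. Most genes were higher too, with a lower quartile of the log2 fold of 0.24 over all genes tested. With TMM or RLE scaling factors 7 of the 9 were higher. The median log2 fold over all genes tested was then 0.10 with TMM and 0.05 with RLE, and the share of all genes that were higher was not computed. On the authors' totals the call of 2-fold higher was reached by 7 of the 9 and that of lower by none, which leaves squ and zuc with no call. With TMM or RLE scaling factors 1 of the 9 was called higher, papi, and 1 lower, zuc, so 6 of the 7 calls on the authors' totals were lost. Over all genes tested, 40.6% were called higher and 3.21% lower on the authors' totals, so a call of higher was common. The median log2 fold of the 9 genes was 1.22, beside 0.89 over all genes tested. All 9 together had 4503 reads in Yb ΔHel-C and 1552 in Yb WT, a 3.06-fold higher level (interval 2.89 to 3.24). They held 0.204% of the reads on gene rows in Yb ΔHel-C and 0.0818% in Yb WT. Without armi the other 8 had 831 reads in Yb ΔHel-C and 356 in Yb WT, a 2.46-fold higher level (2.17 to 2.79).

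**Figure D1:**
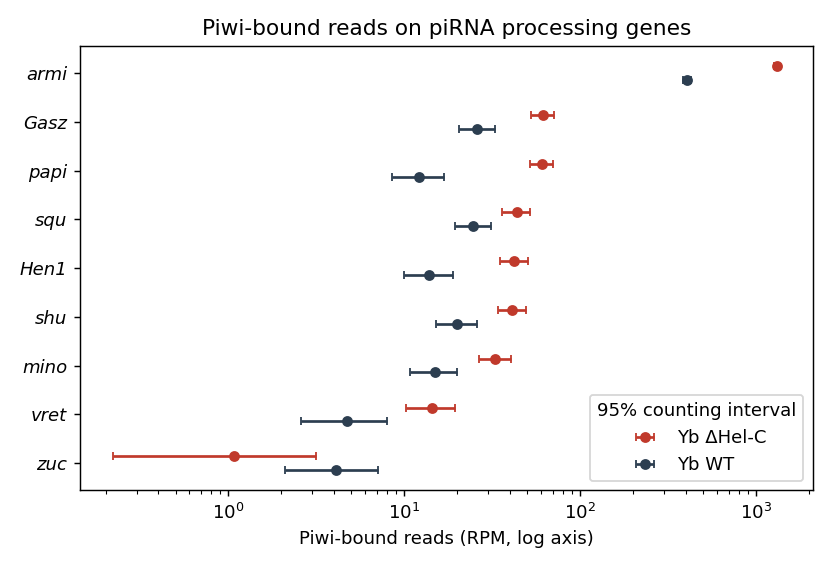
Piwi-bound reads in RPM (horizontal log axis) on each of the 9 processing genes in the Yb ΔHel-C column (upper, red) and the Yb WT column (lower, dark), with exact 95% counting intervals. The 2 intervals of a gene lie apart for every gene but zuc, and armi lies far above the rest in both columns. The share of all genes tested whose intervals lie apart was not computed. The median log2 fold over all genes tested was 0.89.

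The factors of the Yb body come first. armi (FBgn0041164, CG11513; dm6 3L, 3461317 to 3466314), the helicase that binds and hands over piRNA precursors, had by far the most reads of the 9. It stood at 1309.9 RPM in Yb ΔHel-C (1268 to 1353) and at 405 RPM in Yb WT (382 to 428), from 3672 reads in Yb ΔHel-C and 1196 in Yb WT. Its level was 3.24-fold higher in Yb ΔHel-C (3.03 to 3.46). Among all gene rows armi had the 79th highest level in Yb ΔHel-C and the 331st highest in Yb WT. It held 81.5% of the reads on the 9 genes in Yb ΔHel-C (80.4 to 82.7) and 77.1% in Yb WT (74.9 to 79.1).

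vret (FBgn0263143, CG4771; 3R, 22742954 to 22745581), a Tudor protein that stabilises Piwi, had 14.3 RPM in Yb ΔHel-C (10.2 to 19.4) and 4.74 RPM in Yb WT (2.59 to 7.95). With 40 reads in Yb ΔHel-C and 14 in Yb WT, its level was 3.01-fold higher, with a wide interval of 1.60 to 5.99. shu (FBgn0003401, CG4735; 2R, 23841461 to 23843286), a co-chaperone needed to load Piwi, had 41.0 RPM in Yb ΔHel-C (33.9 to 49.2) and 20.0 RPM in Yb WT (15.2 to 25.8). The ratio for shu was 2.05 (1.49 to 2.86) and its log2 fold 1.02, just past the threshold of 1.

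The 4 genes whose proteins sit at or work on the mitochondrial surface did not move as one. papi (FBgn0031401, CG7082; 2L, 2220748 to 2225544) had the highest ratio of the 9, with 60.3 RPM in Yb ΔHel-C (51.5 to 70.1) and 12.2 RPM in Yb WT (8.53 to 16.9). With 169 reads in Yb ΔHel-C and 36 in Yb WT, papi was 4.95-fold higher (3.44 to 7.30). Gasz (FBgn0033273, CG2183; 2R, 8167948 to 8170089), a membrane scaffold that holds Armitage, had 61.4 RPM in Yb ΔHel-C (52.5 to 71.2) and 26.1 RPM in Yb WT (20.6 to 32.6), 2.35-fold higher (1.79 to 3.12). Reads on papi and Gasz were thus nearly equal in Yb ΔHel-C, at 169 and 172, whereas in Yb WT papi had 36 and Gasz 77. mino (FBgn0027579, CG5508; 3R, 27925191 to 27933077), a glycerol-3-phosphate acyltransferase, had 32.8 RPM in Yb ΔHel-C (26.5 to 40.2) and 14.9 RPM in Yb WT (10.8 to 20.0), 2.20-fold higher (1.52 to 3.23).

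zuc (FBgn0261266, CG12314; 2L, 11988735 to 11989882), the nuclease that cuts precursors into piRNAs, had the fewest reads of the 9. It had 3 reads in Yb ΔHel-C, or 1.07 RPM (0.221 to 3.13), and 12 reads in Yb WT, or 4.06 RPM (2.10 to 7.09). The ratio was 0.264 (0.0477 to 0.977) and the log2 fold -1.54, at the 2.49th percentile of all genes tested. zuc was not called lower, since its exact test did not pass after adjustment, and its value rests on 15 reads in all.

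The last 2 genes are Hen1 and squ. Hen1 (FBgn0033686, CG12367; 2R, 12145710 to 12152752), the methyltransferase that protects the 3' ends of piRNAs, had 42.1 RPM in Yb ΔHel-C (34.8 to 50.4) and 13.9 RPM in Yb WT (9.96 to 18.8), 3.03-fold higher (2.11 to 4.44). squ (FBgn0267347, CG4711; 2L, 16680054 to 16681653), a gene best known from the germline pathway, had 43.5 RPM in Yb ΔHel-C (36.1 to 52.0) and 24.7 RPM in Yb WT (19.4 to 31.1). Its ratio of 1.76 (1.31 to 2.39) did not reach 2-fold, and its log2 fold of 0.80 lay below the median of all genes.

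**Figure D2:**
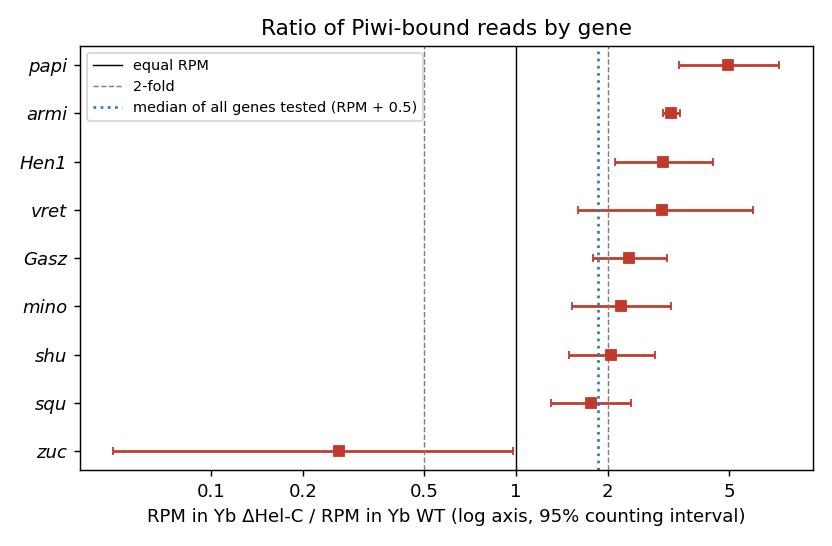
Ratio of RPM in Yb ΔHel-C to RPM in Yb WT (horizontal log axis) for each gene with its exact 95% counting interval, beside lines at equal RPM, at 2-fold either way and at the median of all genes tested. On the authors' totals, the intervals of papi, armi and Hen1 lie above 2, and that of zuc lies below 1. The share of all genes tested with such intervals was not computed.

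Between neighbours in the order of ratios, papi, armi, Hen1, vret, Gasz, mino, shu and squ, the counting intervals overlapped at every step, and zuc lay apart from squ. The differences among the genes were also taken as ratios of reads on 1 gene to reads on another, which no choice of scaling can change. Of the 36 pairs, 17 had an interval apart from 1, without adjustment for the number of pairs, and 8 of these included zuc. A further 5 included papi. The share among pairs of all genes tested was not computed, and the 8 pairs with zuc all rest on its 15 reads. There were 1.39 reads on papi per read on squ in Yb ΔHel-C and 0.493 in Yb WT, a 2.81-fold higher ratio (1.73 to 4.60). papi also gained on armi, with 0.0460 reads per read on armi in Yb ΔHel-C and 0.0301 in Yb WT, 1.53-fold higher (1.05 to 2.27). armi gained on squ 1.84-fold (1.34 to 2.49) and on shu 1.58-fold (1.12 to 2.19). Hen1 and armi could not be told apart in this way, at 1.07 (0.724 to 1.54).

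The same ratio was taken between armi and 3 genes outside the group. Reads on armi per read on fs(1)Yb, the gene of Yb, were 2.03 in Yb ΔHel-C and 0.997 in Yb WT, 2.04-fold higher (1.85 to 2.25), although reads from plasmid and endogenous Yb RNA cannot be separated. Per read on piwi, armi had 0.655 reads in Yb ΔHel-C and 0.464 in Yb WT, 1.41-fold higher (1.30 to 1.53). Reads from any Flag-tagged piwi construct could not be separated from endogenous ones either. Per read on tj, the transcription factor gene whose 3' end is a known piRNA source, armi had 0.292 reads in Yb ΔHel-C and 0.0580 in Yb WT, 5.04-fold higher (4.70 to 5.40). On the authors' totals the log2 folds of the outside genes were 0.67 for fs(1)Yb, 1.19 for piwi and -0.64 for tj. The median over all genes tested was 0.89, so each ratio reflects the folds of both genes and not of armi alone.

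How high a fold ranks depends on the level of a gene, so each was set beside genes of its own range. armi was the one processing gene with a mean between 100 and 1000 RPM. In that range 30.6% of 1224 genes were called higher and 3.59% lower, the median log2 fold was 0.57, and the value of armi, 1.69, lay at the 93.3rd percentile. Of the 6 genes between 10 and 100 RPM, 5 were called higher and none lower, beside 54.9% higher and 1.31% lower among the 3209 genes there. Within that range papi lay at the 97.1st percentile, Hen1 at the 78.1st, Gasz at the 57.7th, mino at the 51.5th, shu at the 46.0th and squ at the 34.5th. Of vret and zuc, between 1 and 10 RPM, vret was called higher and zuc was not called, beside 30.3% higher and 4.53% lower among the 3025 genes in that range. There vret lay at the 75.7th percentile and zuc at the 5.19th. These percentiles describe the columns and are not tests.

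**Figure D3:**
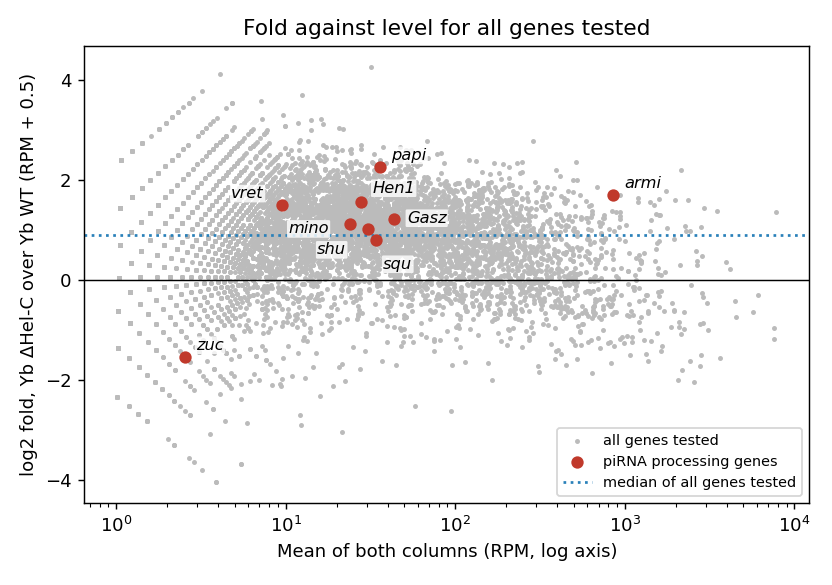
Log2 fold of Yb ΔHel-C over Yb WT on RPM + 0.5 (vertical) against the mean RPM of both columns (horizontal log axis) for the 7577 genes tested (grey) and the 9 processing genes (red, named). Gasz, mino, shu and squ lie close to the dotted median of 0.89. papi and armi lie above most genes of their level, and zuc lies below most genes of its level.

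These folds rest on the authors' totals, and TMM and RLE scaling, which take most rows as unchanged, moved the median log2 fold of all genes by -0.79 and -0.84. With either, papi was called higher (log2 folds 1.44 with TMM and 1.39 with RLE) and zuc was called lower (-2.19 and -2.23), beside 8.59% of genes called higher and 11.4% lower with TMM and 7.22% and 12.1% with RLE. The other 7 were called neither, with armi at 0.85 and 0.80, Hen1 at 0.74 and 0.69, vret at 0.70 and 0.66, and squ turned to -0.026 and -0.075. Scaled to gene reads, armi, vret, papi and Hen1 were called higher and zuc lower, beside 27.6% and 5.07% of genes. Of all genes called, 92.7% were higher on the authors' totals, 84.5% with gene reads, 42.9% with TMM and 37.3% with RLE. A scaling moves each gene and the median of all genes by nearly the same amount, so differences from that median hardly depend on it by construction. On the log2 scale and the authors' totals they were 1.37 for papi, 0.80 for armi, -0.088 for squ and -2.43 for zuc.

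**Figure D4:**
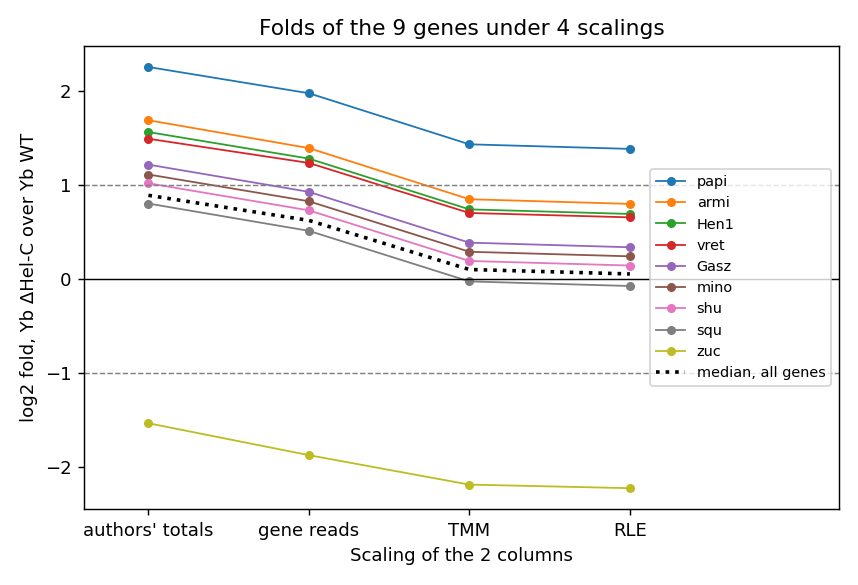
Log2 fold of Yb ΔHel-C over Yb WT (vertical) for the 9 genes under 4 scalings of the columns, with the median of all genes tested dotted and 2-fold dashed. All lines drop together by about the shift of the median, papi stays above 1, squ crosses 0 with TMM and RLE, and zuc stays below -1.

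Levels were compared between genes per kilobase of the annotated locus, introns included. armi had 262 RPM per kb in Yb ΔHel-C (254 to 271) and 81.0 RPM per kb in Yb WT (76.5 to 85.7). By the mean of both columns per kb, armi lay at the 98.7th percentile of the 6904 tested genes with a position. Gasz, squ and shu followed in both columns, with 28.6, 27.2 and 22.5 RPM per kb in Yb ΔHel-C and 12.2, 15.4 and 10.9 RPM per kb in Yb WT, and the intervals of neighbours among them overlapped. Lower still lay papi, at 12.6 RPM per kb in Yb ΔHel-C and 2.54 in Yb WT. papi lay apart from Hen1, vret and mino in Yb ΔHel-C (5.98, 5.43 and 4.16 RPM per kb), while in Yb WT its interval overlapped those of its neighbours. The density of zuc was 0.932 RPM per kb in Yb ΔHel-C (0.192 to 2.72) and 3.54 RPM per kb in Yb WT (1.83 to 6.18), which placed it last in Yb ΔHel-C and between shu and papi in Yb WT.

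The loci of 7 of the 9 genes overlap another annotated gene, Gasz and papi being the exceptions, beside 51.6% of the tested genes with a position. The sources used here do not say how reads in shared stretches were assigned, or whether by strand, which makes these values uncertain. The whole locus of squ lies within grp, the checkpoint kinase gene, which had 224 RPM in Yb ΔHel-C and 109.98 RPM in Yb WT, a ratio of 2.04 (1.78 to 2.34) beside 1.76 for squ. Within Hen1 lies the locus of bsd, listed as CG8878, which covers 71.5% of it and had 92.7 RPM in Yb ΔHel-C and 48.1 RPM in Yb WT, a ratio of 1.93 (1.57 to 2.39) beside 3.03 for Hen1. mino overlaps NSD by 96 bases, and NSD had 88 reads in Yb ΔHel-C and 38 in Yb WT, 2.44-fold higher (1.65 to 3.67). mino also overlaps nenya, listed as CG31053 with 0 reads in both columns, and the non-coding genes lncRNA:CR45566 and asRNA:CR46452. The locus of vret overlaps CG6985 by 128 bases, a gene with 30 reads in Yb ΔHel-C and 16 in Yb WT. The locus of zuc overlaps CG34163 by 67 bases, and CG34163 had 2 reads in Yb ΔHel-C and 3 in Yb WT. armi shares its whole locus with the annotated gene CG46463, and shu shares 44 bases with CG46398. No row could be matched by symbol or synonym for CG46463, CG46398 or the non-coding genes that overlap mino, so no values for them are given.

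Other genes of the pathway were taken from lists and are described by their counts, to be read beside the 40.6% higher and 3.21% lower and the median log2 fold of 0.89 over all genes tested, and beside the 8.59% higher and 11.4% lower with TMM and 7.22% and 12.1% with RLE. The 10 other piRNA biogenesis genes found had a median log2 fold of 0.64, and 3 of them were called higher and 1 lower, beside 40.6% and 3.21% of all genes. piwi, which encodes the Argonaute protein itself, had 1998 RPM in Yb ΔHel-C and 873 RPM in Yb WT (2.29-fold, 2.19 to 2.40). Hsp83, the chaperone gene, had 775 RPM in Yb ΔHel-C and 322 RPM in Yb WT (2.40-fold, 2.23 to 2.60), and Hel25E, an RNA helicase gene for messenger RNA export, had 154 RPM in Yb ΔHel-C and 55.2 RPM in Yb WT (2.80-fold, 2.33 to 3.37). SoYb, a relative of Yb, was the one called lower, with 363 RPM in Yb ΔHel-C and 732 RPM in Yb WT (ratio 0.496, 0.460 to 0.535). With TMM and RLE none of these 10 was called higher and 2 were called lower.

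The 11 other genes of the mitochondrial outer membrane found had a median log2 fold of 1.17, beside 1.22 for the processing genes, and 6 of the 11 were called higher and none lower. Over all genes tested 40.6% were called higher, and over those between 10 and 100 RPM 54.9% were. Marf, a mitofusin gene with the most reads on the list, had 303 RPM in Yb ΔHel-C and 163 RPM in Yb WT (1.86-fold, 1.66 to 2.08). Tom40, the import channel gene, had 56.4 RPM in Yb ΔHel-C and 27.1 RPM in Yb WT (2.08-fold, 1.58 to 2.76). mge, an import receptor gene, had 56.4 RPM in Yb ΔHel-C and 24.7 RPM in Yb WT (2.28-fold, 1.72 to 3.05). Miro, which links mitochondria to microtubules, had 32.1 RPM in Yb ΔHel-C and 12.2 RPM in Yb WT (2.64-fold, 1.77 to 3.99). With TMM and with RLE 1 of these 11 was called higher and 1 lower.

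The 13 nuclear silencing genes found had a median log2 fold of 1.52, and 9 of them were called higher and none lower, beside 0.89 and 40.6% over all genes tested and 1.09 and 54.9% over those between 10 and 100 RPM. Su(var)2-10, a SUMO ligase gene, had the most reads, at 1959 RPM in Yb ΔHel-C and 3593 RPM in Yb WT (ratio 0.545, 0.528 to 0.563). CoRest, a co-repressor gene, was called higher with a ratio of 2.88 (2.54 to 3.26). The gene of the heterochromatin protein HP1a was also called higher, with a ratio of 2.95 (2.57 to 3.40), and so was Mi-2, a chromatin remodeller gene, with a ratio of 3.57 (3.05 to 4.19). With TMM and with RLE 1 of the 13 was called higher and 1 lower. Of the 13 genes listed for the germline piRNA pathway, 9 passed the filter. Their median log2 fold was 0.52, beside 0.89 over all genes, and 1 of the 9 was called higher and 1 lower, beside 40.6% and 3.21%. tud, a Tudor gene with the most reads of them, had 568 RPM in Yb ΔHel-C and 681 RPM in Yb WT (ratio 0.835, 0.781 to 0.892), tapas was 2.72-fold higher (2.06 to 3.63) and aub had a ratio of 0.461 (0.227 to 0.889) from 14 reads in Yb ΔHel-C and 32 in Yb WT. With TMM and RLE none of these 9 was called higher and 2 were called lower.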

How the data were processed

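RNA of 23 to 30 nucleotides bound to Flag-purified Piwi was sequenced in 4 libraries. The deposited table gives 1 value column per group in RPM, with the unit read from the values, since its header names none. The submitters' processing notes name the tools STAR and HTSeq and the builds dm6 and BDGP6, without role or version. The sources used here do not say whether the authors pooled libraries. All values above 0 (100%) were whole multiples of 1 step per column, within 0.01 read, and reads were recovered from these steps. A level of 3 reads, 1.07 RPM in Yb ΔHel-C and 1.02 RPM in Yb WT, was taken as the limit that a 0 allows. It is a 1-sided rule, unlike the intervals above. zuc in Yb ΔHel-C, with 3 reads, lay at this level. A replicate test such as edgeR's quasi-likelihood test needs replicate columns and was not run. In its place stand ratios with Clopper-Pearson intervals (scipy 1.17.1), a pseudocount of 0.5 RPM, a filter of a mean of 1 RPM, and an exact conditional binomial test on recovered reads with Benjamini-Hochberg adjustment over genes. It called 3075 genes higher and 243 lower at 2-fold. The procedure was tested on simulated reads with counting error only and most genes unchanged. That setting differs from these columns and does not cover the spread between libraries. Scaling factors came from edgeR 4.0.16. Intervals of ratios between genes are conditional odds ratio intervals. Symbols, identifiers and Release 6 positions came from RefSeq and FlyBase name tables. List symbols had to match exactly, which left out Hop, ova and Sam50. From each list the gene with the most reads was named, then called genes by reads, up to 4 in all. Genes with a similar pattern were not sought, since 2 values give no pattern. The genes and lists were chosen with earlier results of these data known.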

Additional observations from a re-analysis of the deposited data

How the results depend on the processing

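Scaling moved the calls most. Of the 9 processing genes, 1 was called higher and 1 lower with TMM and with RLE, and 4 and 1 when scaled to gene reads, against 7 and 0 on the authors' totals. Over all genes, 651 were called higher and 867 lower with TMM, 547 and 920 with RLE, and 2090 and 384 with gene reads. squ turned to a log2 fold of -0.026 with TMM and -0.075 with RLE. With no minimum fold 4327 of the 7577 genes tested were called higher and 583 lower, and squ joined the genes called higher. With 2-fold alone and no test on reads 3403 genes were called higher and 377 lower, and zuc became the 1 processing gene called lower. Pseudocounts of 0.1 and 1 RPM, no filter on low values (all genes with a read) and a minimum of 1 RPM in both columns left the call of each of the 9 genes as it was. No paired analysis was possible because the deposited table has 1 column per group, and for the same reason no replicate could be left out. Depth limits zuc (15 reads) and vret (54 reads) most.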
